A study of Gallus gallus with 6 samples.

Results

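The cells described here were chosen by somitic mesoderm markers from the dorsal trunk of chicken embryos at 3 stages, HH12, HH15 and HH20. That every chosen cell is somitic mesoderm is not shown. A cell was taken from a somite library if it held at least 1 unique molecular identifier (UMI, 1 captured transcript molecule) of MEOX1, MEOX2 or TCF15, and 0 UMIs of each of EPCAM, SOX10, ELAVL4 and HAND1, which mark epithelium, neural crest, neurons and lateral plate mesoderm. This rule left 2415 marker-chosen cells among the 7798 cells kept from the somite libraries, and 16306 cells were kept in all 6 libraries of the series. They numbered 1388, 677 and 350 in the libraries of HH12, HH15 and HH20. The levels of these 7 genes chose the cells, and the genes described below were picked because they moved in 1 direction over the stages, so both are given as descriptions.

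The study asked how skeletal cells arise from different embryonic lineages and sampled the dorsal part of the brachial region, where the forelimb forms, at the Hamburger-Hamilton stages HH12, HH15 and HH20, and the frontonasal prominence at HH15, HH18 and HH22. Each library pooled tissue of several embryos of both sexes from Hubbard eggs, dissociated with trypsin, and the labels name no mutation or treatment. Each stage gave 1 library, so no spread between embryos or libraries could be estimated and no test was run. Every interval below is a 95% interval for counting error alone, and stage, library and the level of the trunk that was dissected cannot be told apart.

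Somites are blocks of paraxial mesoderm that bud off in sequence along the trunk. Their ventral part loses its epithelial order and becomes sclerotome, the source of vertebrae and ribs, while the dorsal part becomes dermomyotome, the source of trunk muscle and of the dermis of the back. TCF15 and the MEOX factors act in the epithelial somite and its early derivatives, PAX1, PAX9 and NKX3-2 in sclerotome, and Pax3 and PAX7 in dermomyotome.

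The somite libraries of HH12, HH15 and HH20 held 12127588, 9407475 and 7779317 UMIs. The marker-chosen cells held 4532917, 1813179 and 1298292 of them, with median depths of 2651.5, 2146 and 2949.5 UMIs per cell, against 3218.5, 2244 and 2882 UMIs in the other kept cells. Pairs of libraries shared between 2 and 22 barcodes, which is under 1% of the smaller library in every pair. The UMIs of the marker-chosen cells were summed for each stage and expressed as CPM, the number of UMIs in each 1000000 of the sum, after TMM scaling, which assumes that most genes stay level.

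The share of kept cells that met the rule was largest at HH12. It was 46.1% (44.3 to 47.9) there, 22.5% (21.1 to 24.1) in the HH15 library and 19.7% (17.8 to 21.6) in that of HH20. After thinning each cell to 1500 UMIs, so that depth was equal, the shares were 42.5%, 18.7% and 13.5%, with 517 shallower cells of HH15 left out. Cells with at least 2 marker UMIs made up 34.9%, 11.5% and 8.76%. A single UMI can come from free RNA in the suspension, so the same markers were read in cells that held genes of other cell types. Of neural crest cells, taken as cells with at least 2 SOX10 UMIs, 1 of 13, 6 of 88 and 6 of 75 in the libraries of HH12, HH15 and HH20 held a UMI of MEOX1, MEOX2 or TCF15, which is 7.69%, 6.82% and 8.0% at median depths of 3879, 2671 and 3428 UMIs. Of cells with at least 2 UMIs of ELAVL4, a gene of neurons, 12 of 17, 4 of 30 and 11 of 153 held one, which is 70.6%, 13.3% and 7.19%. With 1 SOX10 UMI enough to count a cell, the shares were 15.0%, 8.87% and 12.7%. Of cells with EPCAM, 48.3%, 16.8% and 16.0% held a marker UMI, at median depths of 4906.5, 3723 and 3226 UMIs. Of all kept cells, 57.5%, 25.8% and 25.4% held one, at median depths of 2929.5, 2232 and 2910.5 UMIs. Cells that held genes of other types thus held marker UMIs at every stage. Part of the marker-chosen cells may therefore not be somitic mesoderm, and the size of that part at each stage was not tested. At HH12 the share was higher in the 17 cells with ELAVL4 than in all kept cells, so these 17 cells are not shown to be neurons.

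**Figure D1:**
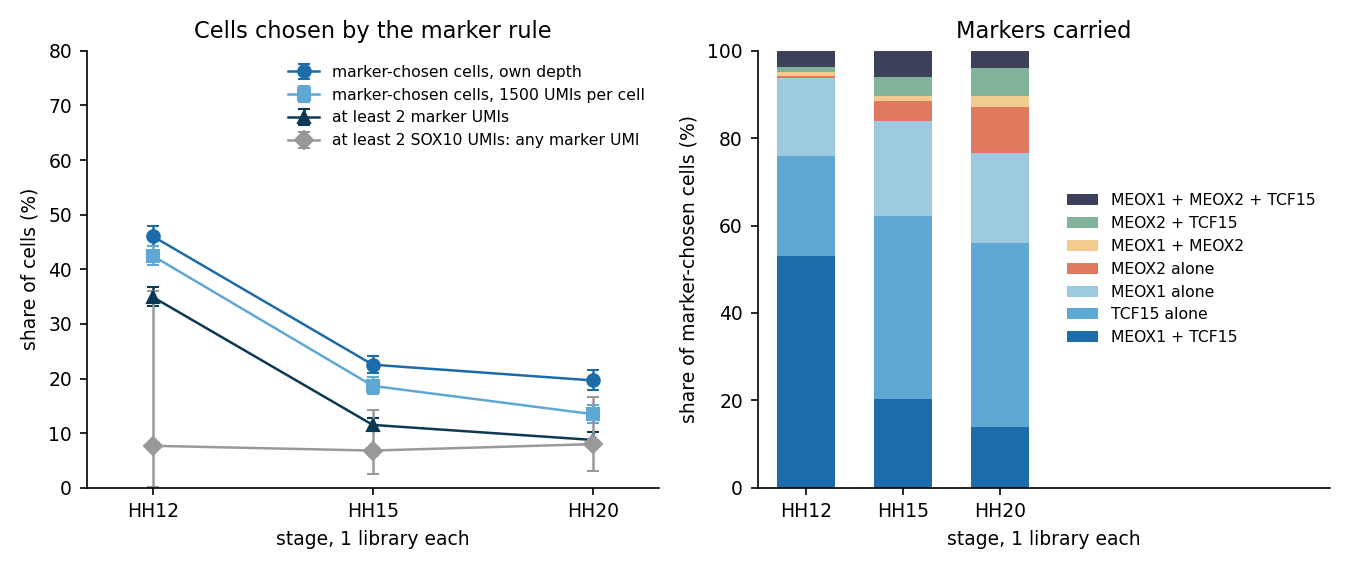
Left, the share of kept cells (%) that met the marker rule at each stage, at their own depth, after thinning to 1500 UMIs and with at least 2 marker UMIs, beside the share of cells with at least 2 SOX10 UMIs that held any marker UMI; bars are exact 95% intervals for counting error, 1 library per stage. Right, the marker-chosen cells (%) divided by which of the 3 markers they held. The share was 46.1% at HH12 and 19.7% at HH20, and the cells with both MEOX1 and TCF15 but no MEOX2 were 53.0%, 20.2% and 14% of them.

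The markers themselves shifted over the stages. TCF15, a transcription factor needed for epithelial somites, was at 714, 555 and 349 CPM at HH12, HH15 and HH20, against 153, 19.8 and 31.5 CPM in the other cells. MEOX1, a homeobox factor of early somites, was at 615, 331 and 149.9 CPM, against 129.5, 9.35 and 11.05 CPM in the other cells. MEOX2, its paralog of later somite derivatives and limb muscle, was at 20.6, 71.2 and 79.4 CPM, against 2.14, 1.38 and 5.02 CPM. Both TCF15 and MEOX1 were therefore lowest at HH20, and MEOX2 was lowest at HH12. The median marker-chosen cell held 3 marker UMIs at HH12, 2 at HH15 and 1 at HH20. Just inside the threshold were 335, 331 and 194 cells with exactly 1 marker UMI, and 1280, 2229 and 1328 kept cells with none lay just outside. EPCAM, SOX10, ELAVL4 or HAND1 removed 346, 98 and 102 kept cells that held a marker UMI. The other kept cells thus include somitic cells in which no marker was captured or in which 1 of these 4 genes was.

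Genes of other cell types were also found in the marker-chosen cells, and not all of them at low levels. SOX2 and KRT18 were lower than in the other cells at each stage, and STMN2 at HH20 alone. SOX2, a factor of neural progenitors, was at 3.09, 5.61 and 8.103 CPM, against 16.7, 25.8 and 32.7 CPM in the other cells. STMN2, a neuronal microtubule regulator, was at 1.86, 2.24 and 21.1 CPM, against 0.572, 1.84 and 155 CPM. KRT18, a keratin of simple epithelia, was at 88.7, 98.2 and 2.43 CPM, against 415, 250.4 and 12.3 CPM. Its level and that of KRT7, at 36.7, 60.6 and 2.43 CPM, were lower at HH20 than at HH15, and KRT18 was so in both sets of cells. Globin transcripts rose steeply, with HBZ, an embryonic alpha-type globin, at 106, 1707 and 11624 CPM. Only 1, 2 and 9 marker-chosen cells took over 10% of their UMIs from globin genes, and these held 3319 of 3414, 11550 of 14685 and 61564 of 71666 globin UMIs. The median globin share of a marker-chosen cell was 0%, 0.150% and 0.845%, against 0%, 0.151% and 0.839% in the other cells.

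A gene was considered if its mean over the 3 stages was at least 20 CPM, and called rising or falling if it moved in 1 direction over HH12, HH15 and HH20 and differed at least 2-fold between HH20 and HH12. Of 4481 genes considered, 105 rose (2.34%) and 124 fell (2.77%). The median change of all genes considered was -0.04 on the log2 scale. Scaling by the total UMI count in place of TMM shifted this median by -0.17 and gave 79 rising and 203 falling genes. Among the called genes are 3 of the rule itself, MEOX2 rising and MEOX1 and TCF15 falling, and 6 of the rising genes are globins. In the other cells of the same libraries, 113 of 4407 genes rose (2.56%) and 93 fell (2.11%). Of the 105 genes that rose in the marker-chosen cells, 45 were also called rising in the other cells. At HH20, 100 of the 105 were higher than at HH12 in the other cells, 72 of them at least 2-fold. Of the 124 that fell, 35 were also called falling in the other cells, and 115 were lower at HH20 there, 58 of them at least 2-fold. The shares of all genes considered that were higher, lower or 2-fold changed in the other cells are not given, so these counts are descriptions only. Both sets of cells come from the same libraries, and the levels in the other cells are given beside some of the changes below. A change given without them is not shown to differ from that in the other cells.

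**Figure D2:**
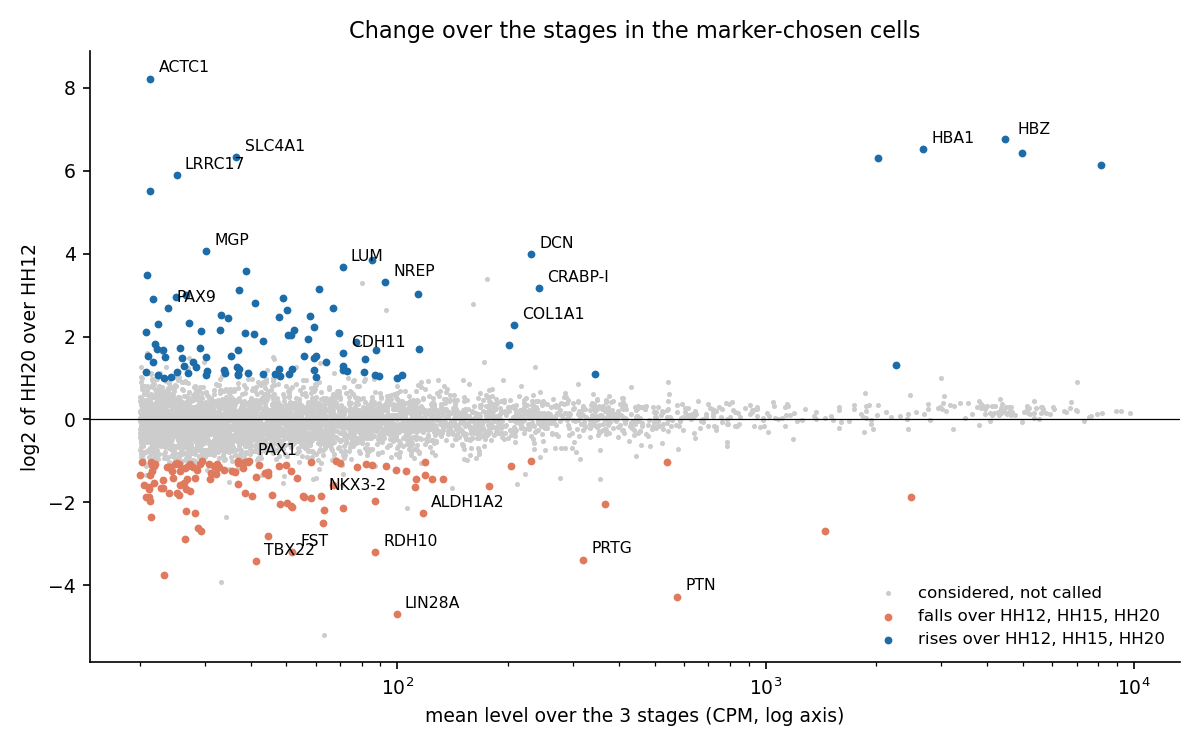
Change between HH20 and HH12 (log2) against the mean level over the 3 stages (CPM, log axis) for the genes considered in the marker-chosen cells, 1 point per gene, with the 105 rising genes in blue, the 124 falling genes in red and the rest in grey. RIPPLY3 fell to 0 UMIs at HH20 and has no point. The globin genes lie apart at the top right, with HBZ at a log2 change of 6.78, and PTN at -4.27 and LIN28A at -4.70 lie lowest among the labelled genes.

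Several genes of the mesenchymal extracellular matrix rose. Of 10 considered genes of this list, 5 rose and 0 fell, against 2.34% and 2.77% of all genes considered. This list and those below were written with earlier results of these data known, so counts within a list are descriptions only. The median log2 change was 1.09, against 1.2 in the other cells. DCN, encoding decorin, a small proteoglycan that binds collagen fibrils, was at 29.5, 196 and 467 CPM at HH12, HH15 and HH20 and 15.8-fold higher at HH20 than at HH12 (13.2 to 19.1). It was at 37.2, 120.2 and 166 CPM in the other cells. Decorin UMIs were found in 94 of 1388, 181 of 677 and 217 of 350 marker-chosen cells, which is 6.77%, 26.7% and 62.0%, so the gain was spread over many cells. LUM, encoding the related proteoglycan lumican, was at 9.896, 76.9 and 126 CPM (12.8-fold higher, 9.19 to 18.04), against 13.01, 70.2 and 55.2 CPM in the other cells, where it was highest at HH15. COL1A1, the main chain of type I collagen, was at 89.5, 103 and 431 CPM (4.82-fold higher, 4.24 to 5.48), with most of the gain between HH15 and HH20. In cells with at least 2 marker UMIs its log2 change was 2.14, but it did not move in 1 direction and was not called. COL12A1, a collagen that decorates type I fibrils, was at 7.42, 12.9 and 59.96 CPM (8.08-fold higher), against 7.44, 9.66 and 19.5 CPM in the other cells. POSTN, encoding the matricellular protein periostin, was at 31.5, 49.9 and 73.7 CPM (2.34-fold higher). FN1, encoding fibronectin, the matrix around early somites, was not called and was at 189, 86.4 and 105 CPM.

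Further genes of mesenchymal cells were among those called. CDH11, a cadherin of mesenchyme, was at 37.3, 62.8 and 113 CPM (3.04-fold higher, 2.42 to 3.81). CDH2, or N-cadherin, the cadherin of epithelial somites, was not called, at 119, 46.6 and 47.8 CPM. Of 4 considered genes for cadherins and adhesion, 1 rose and 0 fell, and 3 had a log2 change below 0. Their median log2 change was -0.52, against 0.54 in the other cells. ZEB1, a repressor of epithelial genes, was at 34.4, 46.6 and 99.7 CPM (2.89-fold higher). SNAI1, another such repressor, went the other way, at 98.96, 89.2 and 44.6 CPM (2.22-fold lower, 1.68 to 2.99). The list of mesenchymal factors thus did not move as 1 group, with 1 of 7 considered genes rising and 1 falling. In that list 5 log2 changes were below 0, with a median of -0.22, against -0.06 in the other cells. Of 7 considered basement membrane genes, 0 rose and 1 fell, LAMA5, a laminin chain, at 44.9, 23.0 and 17.02 CPM (2.64-fold lower). Of all genes considered, 2.34% rose and 2.77% fell, and 1 called gene of 4 or of 7 shows no change of a list.

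The factors of sclerotome moved in opposite directions. Of 5 considered genes of this list, 1 rose and 2 fell, against 2.34% and 2.77% of all genes considered. Their median log2 change was -0.22, against 1.01 in the other cells. The list summed to 325, 247 and 346 CPM at HH12, HH15 and HH20, against 104, 100 and 191 CPM in the other cells. The falls below hold for the marker-chosen cells and are not shown for all sclerotome. PAX9 rose, at 6.18, 25.8 and 39.7 CPM (6.42-fold higher, 3.99 to 10.5), against 2.002, 6.75 and 13.7 CPM in the other cells. NKX3-2, a homeobox factor that promotes cartilage in sclerotome, fell, at 108, 47.7 and 29.98 CPM (3.61-fold lower, 2.58 to 5.19), against 22.4, 14.6 and 14.7 CPM. PAX1 fell by just the 2-fold required, at 51.95, 40.95 and 25.9 CPM (2.004-fold lower, 1.38 to 2.99), against 9.44, 7.51 and 12.3 CPM in the other cells. PAX1 was thus 2.12 times as high in the marker-chosen cells as in the other cells at HH20, against 5.51 times at HH12. SOX9, the factor that starts cartilage formation, was not called, at 89.1, 93.1 and 165 CPM, and CNMD, encoding the cartilage glycoprotein chondromodulin, was at 32.6, 226.6 and 223 CPM, 6.84-fold higher at HH20 than at HH12 but highest at HH15. COL2A1 and ACAN, the main cartilage matrix genes, had 9, 1 and 6 UMIs and 1, 0 and 0 UMIs and were not considered. Without the globin-rich cells the log2 change of PAX1 was -0.96 and it was no longer called, while PAX9 and NKX3-2 were, and CNMD was called rising. In the cells that held a UMI of HOXA6, HOXA7, HOXB6 or HOXB7, a choice made after seeing the data, PAX1 at -0.44 and NKX3-2 at -0.66 were not called, PAX9 at 2.94 was, and SOX9 and CNMD were called rising.

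Of 4 considered dermomyotome genes, 0 rose and 1 fell, against 2.34% and 2.77% of all genes considered. The 1 gene shows no change of the list. Their median log2 change was -0.86, against -0.04 in the other cells. Pax3, which acts in muscle precursors and in the dorsal neural tube, was at 46.2, 28.05 and 21.1 CPM (2.19-fold lower, 1.46 to 3.43), against 18.4, 33.3 and 29.9 CPM in the other cells, where HH15 was highest. Its paralog PAX7 was at 24.7, 28.6 and 43.8 CPM and was not called. EN1, a homeobox factor of the central dermomyotome, was under the level considered, with 1, 0 and 55 UMIs, the 55 at HH20 spread over 31 cells. The muscle determination factors were scarce. MYOD1 had 18, 7 and 9 UMIs, MYF5 0, 1 and 1 and MYOG 0, 0 and 3. ACTC1, an actin of heart and early skeletal muscle, was listed with 1, 4 and 76 UMIs, at 0.206, 2.24 and 61.6 CPM, and 56 of the 76 UMIs at HH20 came from 1 cell of 8. TNNC1, a troponin chain of slow and heart muscle, fell, at 79.99, 65.6 and 21.9 CPM (3.66-fold lower), against 123, 65.2 and 26.1 CPM in the other cells. TBX6 and MSGN1, factors of unsegmented mesoderm, had 36, 2 and 0 and 6, 2 and 0 UMIs. A UMI of either was found in 2.23% (1.52 to 3.16) of the marker-chosen cells at HH12, in 0.591% at HH15 and in 0 of 350 cells at HH20, where 3 counts taken as the floor allow a share of cells with a UMI of up to 0.857%, which sets no limit on cells that express either gene.

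The genes of retinoic acid, a signal that somites make and receive, split by role. Of 7 considered, 2 rose and 4 fell, against 2.34% and 2.77% of all genes considered. The median log2 change was -1.58, against -0.97 in the other cells. The enzymes and the transporter fell together. ALDH1A2, which makes retinoic acid in somites, was at 200.4, 109 and 42.1 CPM at HH12, HH15 and HH20 (4.76-fold lower at HH20, 3.597 to 6.41), against 121, 82.8 and 39.4 CPM in the other cells. RDH10, which supplies its substrate retinaldehyde, was at 186, 54.4 and 20.3 CPM (9.2-fold lower, 6.19 to 14.3), against 77.4, 22.7 and 25.3 CPM. STRA6, a receptor for vitamin A uptake, was at 147, 76.3 and 37.3 CPM (3.94-fold lower), and DHRS3, which turns retinaldehyde back to retinol, was at 38.8, 25.2 and 12.96 CPM (2.99-fold lower). For all 4 genes, HH12 was highest and HH20 lowest. At HH12, RDH10 and STRA6 were about 2.4 times as high in the marker-chosen cells as in the other cells. At HH15 and HH20 this ratio was 2.40 and 0.80 for RDH10 and 2.73 and 1.51 for STRA6. The binding proteins rose. CRABP-I, encoding the cytosolic retinoic acid binding protein 1, was at 57.5, 149.8 and 519 CPM (9.03-fold higher, 7.83 to 10.4), against a higher 138, 542 and 932 CPM in the other cells. CRABP2, encoding its paralog that carries retinoic acid to nuclear receptors, was at 16.9, 28.05 and 106 CPM (6.28-fold higher, 4.73 to 8.38), against 24.6, 23.6 and 87.4 CPM. The same 6 genes were called in cells with at least 2 marker UMIs, without the globin-rich cells, and in the cells with a UMI of the 4 HOX genes named above. Each of these sets is part of the same marker-chosen cells, so the repeated calls are not independent. The receptor RARB was not called, at 27.01, 21.9 and 16.2 CPM.

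**Figure D3:**
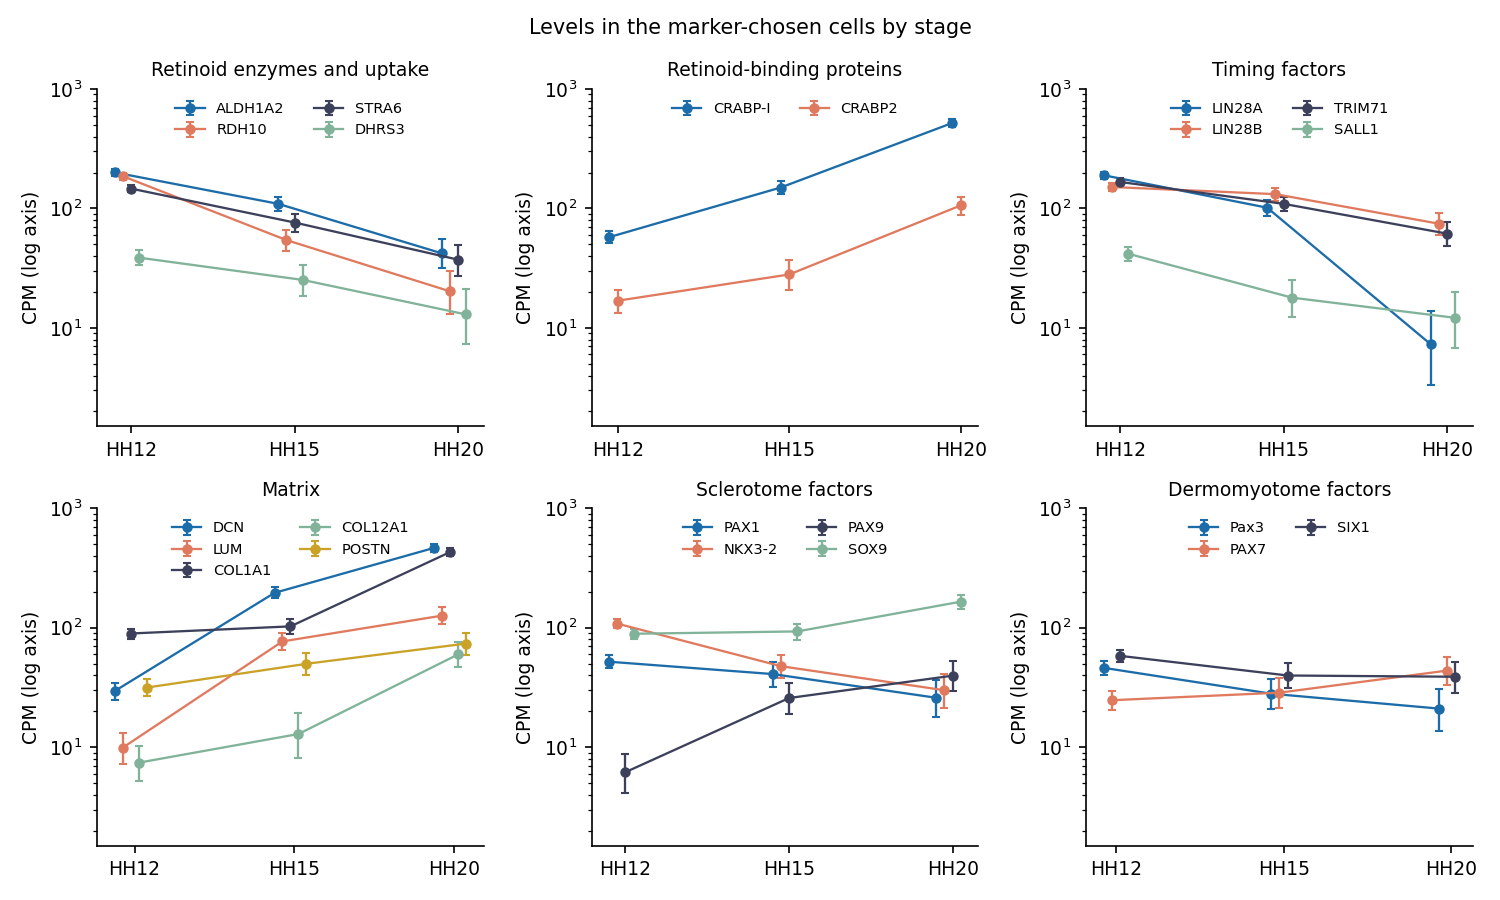
Levels (CPM, log axis) in the marker-chosen cells at HH12, HH15 and HH20 for retinoid enzymes and uptake, retinoid-binding proteins, timing factors, matrix, sclerotome factors and dermomyotome factors; points are the sums of 1 library per stage and bars are exact 95% intervals for counting error. Only the timing factors called falling (4 of 12 considered) and the matrix genes called rising (5 of 10 considered) are plotted. The retinoid enzymes and these timing factors descend, ALDH1A2 to 42.1 CPM and LIN28A to 7.29 CPM at HH20. These matrix genes and the binding proteins climb, DCN to 467 CPM and CRABP-I to 519 CPM, and PAX9 crosses PAX1.

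Some factors of early embryonic timing fell. Of 12 considered, 0 rose and 4 fell, against 2.34% and 2.77% of all genes considered. The median log2 change was -0.90, against -0.51 in the other cells. LIN28A, an RNA-binding protein that blocks maturation of let-7 microRNAs, was at 189.9, 102 and 7.29 CPM (26.04-fold lower, 13.7 to 57.1), against 309, 159.6 and 18.1 CPM in the other cells. UMIs of LIN28A were found in 39.7%, 19.8% and 2.0% of the marker-chosen cells at the 3 stages. Its paralog LIN28B was at 151, 132 and 74.5 CPM (2.03-fold lower) and TRIM71, a let-7 target that binds messenger RNA, at 167, 109 and 61.6 CPM (2.71-fold lower). SALL1, a zinc finger factor, was at 41.9, 17.95 and 12.2 CPM (3.44-fold lower). HMGA2 and IGF2BP3, targets of let-7 in other vertebrates, were not called, at 347, 381 and 498 CPM and 522, 664 and 471 CPM. LIN28B was not called with at least 2 marker UMIs, at a log2 change of -0.97, without the globin-rich cells, at -0.98, or in the cells with a UMI of the 4 HOX genes, at -0.87. LIN28A, TRIM71 and SALL1 fell in each of these, which are parts of the same cells, and HMGA1 rose with at least 2 marker UMIs.

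Among the 12 largest falls was that of PTN, encoding the heparin-binding growth factor pleiotrophin. It was at 1377, 278 and 71.3 CPM (19.3-fold lower at HH20, 15.7 to 24.1), against 638, 209.7 and 84.8 CPM in the other cells, and was found in 86.6%, 39.9% and 17.1% of the marker-chosen cells. PRTG, encoding protogenin, a receptor of the immunoglobulin family, was at 665, 228 and 64.01 CPM (10.4-fold lower, 8.32 to 13.2), and nearly the same levels stood in the other cells, 640.3, 246 and 65.7 CPM. RIPPLY3, a corepressor that binds T-box factors, had 254, 64 and 0 UMIs, which put it at least 21.5-fold lower at HH20 when 3 UMIs are taken as the floor. It was at 56.8, 47.8 and 6.03 CPM in the other cells. TBX22, a T-box factor, was at 77.9, 38.7 and 7.29 CPM (10.7-fold lower, 5.57 to 23.6), against 15.3, 7.82 and 1.21 CPM, and so was higher in the marker-chosen cells at each stage. FST, encoding follistatin, which binds activins and BMPs, was at 112, 31.4 and 12.2 CPM (9.19-fold lower, 5.52 to 16.5), against 29.9, 4.14 and 4.22 CPM. Further genes of the 12 largest falls were RFFL, an E3 ubiquitin ligase (13.4-fold lower), PLPP4, a lipid phosphatase (7.07-fold lower), NPR3, the clearance receptor of natriuretic peptides (6.43-fold lower), CSRP1, a LIM protein (6.18-fold lower), and LIN28A and RDH10, described with their groups.

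Among the 12 largest rises outside the globins, LRRC17, encoding a secreted leucine-rich repeat protein, was at 1.03, 12.9 and 61.6 CPM (59.7-fold higher, 24.5 to 189), from 5, 23 and 76 UMIs, against 0.286, 7.05 and 24.5 CPM in the other cells. Its UMIs lay in 4, 20 and 52 cells. MGP, encoding matrix Gla protein, an inhibitor of calcification, was at 4.74, 6.73 and 79.4 CPM (16.7-fold higher, 10.5 to 27.6), with 98 UMIs in 22 cells at HH20, 25 of them in 1 cell. NREP, first described in regenerating neurons, was at 21.4, 43.2 and 214 CPM (9.98-fold higher, 7.92 to 12.6), against 49.2, 102 and 161 CPM. AIF1L, an actin-binding protein, was at 24.1, 121 and 196 CPM (8.13-fold higher, 6.49 to 10.2), against 20.4, 57.03 and 96.6 CPM. Another 3 were counted in part in the globin-rich cells. SLC4A1, the anion exchanger of red cells, was at 1.24, 9.54 and 98.9 CPM, TSPO2, a red cell membrane protein, at 8.87, 24.7 and 77.8 CPM, and the linker histone gene H1F0 at 11.5, 77.98 and 166 CPM, with 49 of its 56 UMIs at HH12 in 1 cell. Without the globin-rich cells, the log2 change of SLC4A1 was 3.43 in place of 6.32 and that of TSPO2 0.85 in place of 3.13, while that of H1F0 was 4.56 in place of 3.85. The other genes of the 12 largest rises, ACTC1, DCN, LUM, COL12A1 and CRABP-I, stand with their groups. ERG, a factor of endothelium and of early cartilage, rose, at 17.1, 25.2 and 48.6 CPM (2.84-fold higher), and was the 1 considered gene of 13 matched endothelial genes. TUBB3, a tubulin of neurons, rose, at 45.4, 57.2 and 111 CPM (2.45-fold higher), against 108, 145 and 423 CPM in the other cells, and the part of neuronal RNA in this rise was not tested. No gene of the lists for lateral plate mesoderm (15 matched), intermediate mesoderm (7), tendon progenitors (5) or notochord and endoderm (8) reached the level considered. The intermediate mesoderm genes nevertheless summed to 103, 36.5 and 15.4 CPM in the marker-chosen cells, against 139, 40.02 and 38.96 CPM in the other cells. LHX1, a factor of the early kidney and of neurons, was at 34.2, 3.37 and 2.43 CPM and PAX2, a factor of the same tissues, at 29.3, 9.54 and 3.24 CPM, both highest at HH12. At HH12 they were at 91.7 and 86.6 CPM in the 248 cells with MEOX1 and neither other marker, and their part in the changes over the stages was not tested.

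Of 30 considered genes of the hedgehog, WNT, FGF, BMP and Notch lists, 3 were called (10.0%), against 5.11% of all genes considered. In the hedgehog list 1 of 6 considered genes fell, PTCH1, the receptor and target gene, at 36.1, 23.6 and 17.02 CPM (2.12-fold lower, 1.34 to 3.51). In the WNT list 1 of 9 rose, the receptor FZD1, at 56.5, 62.3 and 125 CPM (2.21-fold higher), and 1 fell, the secreted inhibitor SFRP2, at 32.8, 26.9 and 13.8 CPM (2.38-fold lower). FZD7, another WNT receptor, was lowest at HH15 and so not called, at 75.04, 13.5 and 14.6 CPM. None of 5 genes for FGF receptors and their feedback, 6 BMP and TGF-beta genes and 4 Notch genes was called, and FGFR3 was at 103, 38.1 and 38.9 CPM. LFNG and HES4, Notch genes also used in segmentation, were at 45.8, 51.6 and 71.3 CPM and 31.1, 26.9 and 52.7 CPM. Of 26 cell cycle genes, 1 rose and 0 fell, with 13 above and 13 below 0, and the 1 was CCNB3, a cyclin, at 22.7, 39.3 and 92.4 CPM (4.07-fold higher). None of 15 glycolytic genes and none of 68 ribosomal protein genes was called. The ribosomal median was 0.22 on the log2 scale with TMM and 0.05 with the total UMI count. Of 8 considered genes of dissociation and stress, 1 fell, GADD45B, at 42.9, 26.4 and 12.96 CPM (3.31-fold lower).

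HOX genes, which mark the level along the body axis, shifted mainly between HH12 and HH15. This list was added after its values had been seen. Of paralog groups 1 to 5, 11 genes summed to 386, 444 and 407 CPM over the 3 stages. The 8 genes of groups 6 to 8 summed to 107, 683 and 649 CPM, against 289, 678 and 726 CPM in the other cells. All 5 considered genes of groups 6 to 8 were at least 2-fold higher at HH15 than at HH12. The share of all genes considered that met this criterion is not given, so the count is a description only. HOXA7 was at 23.7, 255 and 247 CPM, against 81.4, 234 and 212 CPM in the other cells, and HOXA6 at 10.5, 127 and 103 CPM, so neither met the call, since HH15 was highest. HOXB7, at 23.1, 88.6 and 97.2 CPM (4.21-fold higher), HOXB8, at 29.7, 60.03 and 63.2 CPM (2.13-fold higher), and HOXA5, at 38.3, 103 and 122 CPM (3.17-fold higher), rose. The 4 HOX9 genes summed to 8.87, 18.5 and 34.8 CPM, and all 12 genes of groups 10 to 13 had 0 UMIs in the marker-chosen cells at every stage. A UMI of HOXA6, HOXA7, HOXB6 or HOXB7 was found in 15.6%, 65.0% and 74.6% of the marker-chosen cells at the 3 stages. In cells with EPCAM and none of the 3 somite markers the shares were 52.4%, 72.8% and 77.8%. At 1500 UMIs per cell they were 9.65%, 54.7% and 48.0% in the marker-chosen cells, against 30%, 49.4% and 61.9% in the cells with EPCAM, so in the marker-chosen cells HH15 was then above HH20. The cells with EPCAM were deeper, with medians of 4831.5, 3496 and 3226 UMIs. Axial level and stage cannot be told apart in these sums. Among the cells with such a UMI, 217 at HH12, 440 at HH15 and 261 at HH20, 128 genes rose and 133 fell. Of these genes, 75 and 77 were also called in all marker-chosen cells. The cells with such a UMI held 928747 UMIs at HH12, against 4532917 in all marker-chosen cells, so these counts do not compare the amount of change.

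**Figure D4:**
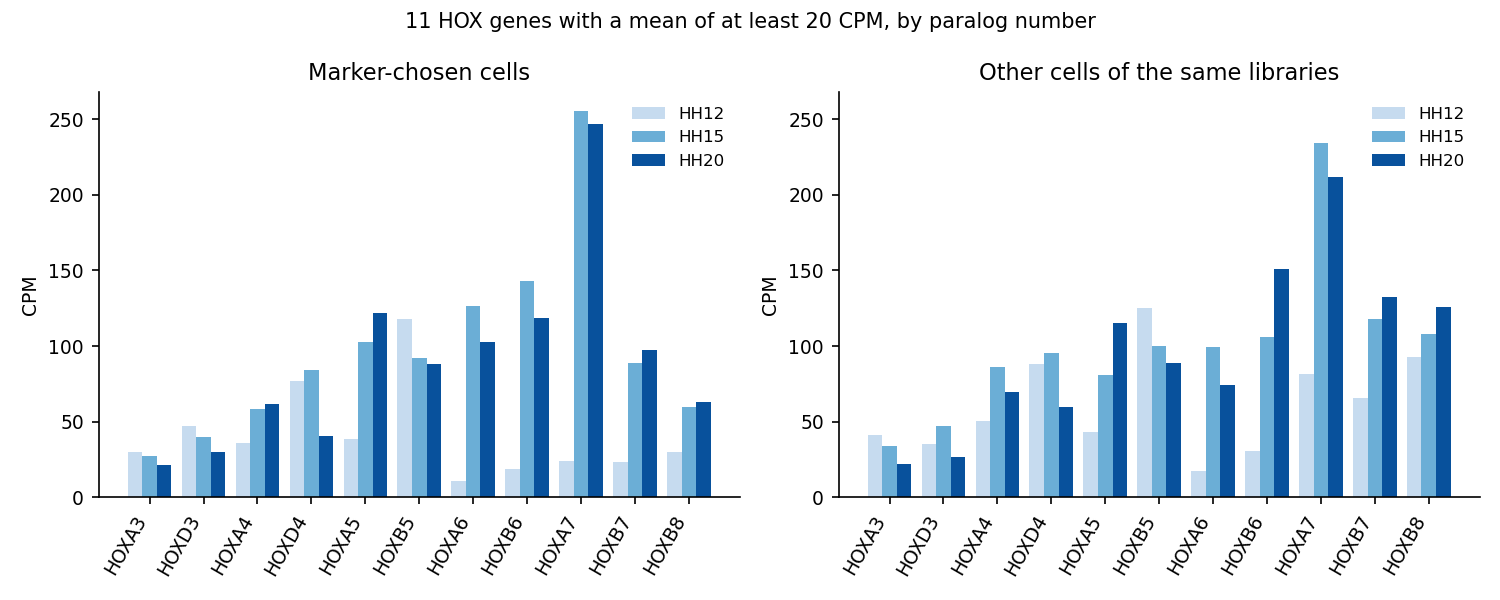
Levels (CPM) of 11 HOX genes with a mean of at least 20 CPM, ordered by paralog number, in the marker-chosen cells (left) and in the other cells of the same libraries (right), 1 bar per stage and 1 library per stage. HOXA6, HOXA7 and HOXB6 stand low at HH12 and high at HH15 and HH20, with HOXA7 at 23.7, 255 and 247 CPM in the marker-chosen cells and at 81.4, 234 and 212 CPM in the other cells.

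The marker-chosen cells differed among themselves in sclerotome and dermomyotome genes. PAX1 or NKX3-2 was found in 27.1% (24.8 to 29.5) of them in the HH12 library, 15.4% (12.7 to 18.3) in that of HH15 and 14.9% (11.3 to 19) in that of HH20. These shares were above those of epithelial cells with EPCAM (1.90%, 1.16% and 1.59%) and of cells with ELAVL4 (4.88%, 2.67% and 3.69%) that held none of the 3 somite markers. At 1500 UMIs per cell they were 19.2%, 11.1% and 8.0%. PAX9 was found in 1.80%, 5.17% and 11.4%. At 1500 UMIs per cell its shares were 0.937%, 3.76% (2.34 to 5.69) and 4.0% (2.20 to 6.62). A higher share at HH20 than at HH15 is thus not shown at equal depth. Pax3 or PAX7 was found in 17.0% (15.1 to 19.1), 10.8% (8.55 to 13.4) and 15.1% (11.6 to 19.3), against 14.3%, 11.6% and 15.9% of the epithelial cells and 22%, 21.3% and 9.73% of the cells with ELAVL4, and so was above both at no stage. At 1500 UMIs per cell the shares were 9.94%, 6.98% and 7.71%, against 5.24%, 7.83% and 6.35% of the epithelial cells and 12.2%, 13.6% and 5.37% of the cells with ELAVL4, and so above both at HH20 alone. Pax3 also acts in the dorsal neural tube, so for this pair these shares are not a level of free RNA alone. Whether neural tube cells are among the Pax3- or PAX7-marked cells was not tested. Both pairs were found together in 10, 1 and 2 cells. Neither pair was found in 786, 501 and 247 cells, which is 56.6%, 74.0% and 70.6%. At these depths a cell that expresses such a gene can lack a UMI of it, so these cells are not shown to lack either lineage's factors.

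The cells marked only by PAX1 or NKX3-2 (366, 103 and 50 cells) were set against those marked only by Pax3 or PAX7 (226, 72 and 51 cells) in each library, with sums scaled to their total UMIs. With the 4 marker genes left out, 52 of 4618 genes (1.13%) were at least 2-fold higher in the PAX1- or NKX3-2-marked cells in each of the 3 libraries, and 21 (0.455%) were at least 2-fold higher in the Pax3- or PAX7-marked cells. A gene without a UMI in the other set of a library also met this, so some of these genes can rest on few UMIs. The genes named here were chosen after their values were seen. SOX9 was at 248, 232 and 471 CPM in the PAX1- or NKX3-2-marked cells at HH12, HH15 and HH20, against 14.6, 16.6 and 19.1 CPM in the Pax3- or PAX7-marked cells. CNMD was at 76.03, 589 and 384 CPM, against 8.49, 16.6 and 62.2 CPM, and DCN at 59.1, 539 and 576 CPM, against 10.9, 16.6 and 201 CPM. COL4A1, a basement membrane collagen chain, was at 139, 266 and 139.6 CPM, against 20.6, 16.6 and 19.1 CPM. These 4 genes were higher in the PAX1- or NKX3-2-marked cells at all stages, as were FN1 (359.9, 171 and 226.8 CPM, against 102, 41.4 and 47.9 CPM) and the cadherin CDH11 (65.05, 141 and 198 CPM, against 19.4, 8.29 and 33.5 CPM). The matrix protease MMP2 was at 81.9, 125 and 110.5 CPM, against 7.28, 4.14 and 38.3 CPM, and the chemokine CXCL12 at 32.9, 129 and 134 CPM, against 6.07, 16.6 and 4.79 CPM. In the other direction, EYA1, a transcriptional cofactor of muscle precursors, was at 7.603, 3.798 and 5.81 CPM in the PAX1- or NKX3-2-marked cells, against 29.1, 53.9 and 47.9 CPM in the Pax3- or PAX7-marked cells, and DACH2, a nuclear cofactor also active in muscle precursors, at 22.8, 7.596 and 5.81 CPM, against 59.5, 70.5 and 47.9 CPM. The receptor FGFR3 was at 41.4, 7.596 and 11.6 CPM, against 121, 49.7 and 62.2 CPM, and the semaphorin receptor PLXNA2 at 38.9, 11.4 and 11.6 CPM, against 99.5, 108 and 86.2 CPM. With 50 to 366 cells in a set, 39 of the 72 levels plotted for these 12 genes rest on under 20 UMIs.

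**Figure D5:**
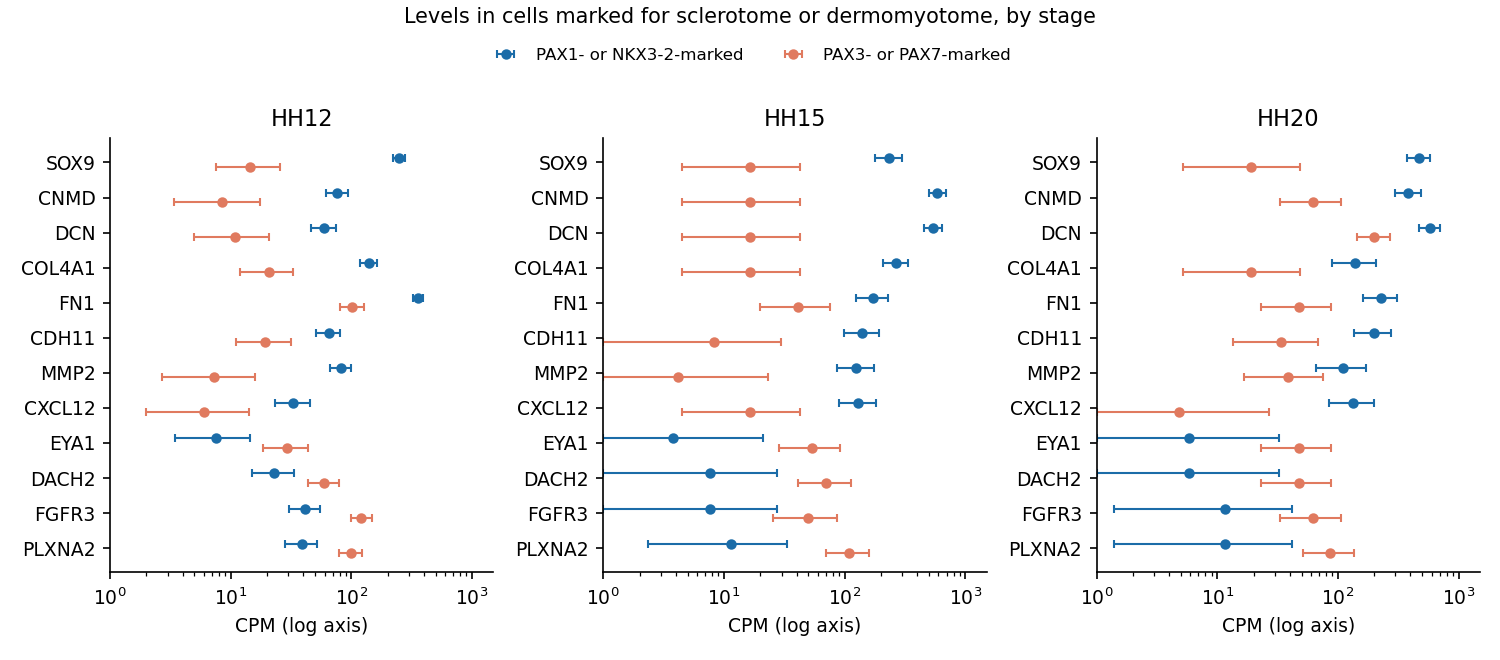
Levels (CPM, log axis) of 12 genes in cells marked only by PAX1 or NKX3-2 (blue) and in cells marked only by Pax3 or PAX7 (red), 1 panel per stage and 1 library per stage; bars are exact 95% intervals for counting error, cut at 1 CPM where they reach lower. The first 8 genes lie to the right in the PAX1- or NKX3-2-marked cells at all stages, with SOX9 at 471 CPM against 19.1 CPM at HH20, and EYA1, DACH2, FGFR3 and PLXNA2 lie to the right in the Pax3- or PAX7-marked cells.

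Some genes that differed between these sets also changed over the stages. Of the 52 genes higher in the PAX1- or NKX3-2-marked cells, 11 are among the 105 that rose, with DCN, CDH11, MGP, MMP2, CXCL12 and PAX9, and 6 are among the 124 that fell, with TBX22 and the collagen crosslinking enzyme LOXL2. Of the 21 genes higher in the Pax3- or PAX7-marked cells, 2 rose, with CRABP2, and 1 fell, LIN28A. Among all genes considered over the stages, 2.34% rose and 2.77% fell. The overlaps are small counts and were not tested. CRABP2 was at 7.603, 11.4 and 5.81 CPM in the PAX1- or NKX3-2-marked cells, against 23.1, 45.6 and 196 CPM in the Pax3- or PAX7-marked cells. The levels of the first set rest on 9, 3 and 1 UMIs and those of the second on 19, 11 and 41, so the higher level at HH20 was seen in the second set. LIN28A was lower at HH20 than at HH12 in both, at 106, 56.97 and 11.6 CPM, against 216, 124 and 23.9 CPM. COL1A1 was higher at HH20 than at HH12 in both, at 140.2, 232 and 308 CPM, against 98.3, 99.5 and 531 CPM. PTCH1 was higher in the PAX1- or NKX3-2-marked cells at HH12 and HH15 and not at HH20, at 76.03, 60.8 and 17.4 CPM, against 14.6, 4.14 and 19.1 CPM. Its levels at HH15 and HH20 rest on under 20 UMIs in both sets, and those at HH20 on very few. A loss of the difference at HH20 is therefore not shown. EN1 had 0 UMIs in the PAX1- or NKX3-2-marked cells at HH20, against 110.1 CPM in the Pax3- or PAX7-marked cells.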

How the data were processed

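For each of the 6 libraries the authors deposited UMI counts per gene and cell barcode, made with 10x Chromium 3' chemistry and Cell Ranger on GRCg6a with an annotation whose 3' UTRs they had elongated. The counts were not normalized. Filters on depth and mitochondrial fraction followed those of the study: a barcode's UMI count had to lie between 0.2 of its library's median and 4 times its mean, and cells with a mitochondrial fraction both above 0.1 and more than 3 scaled median absolute deviations over the median were dropped unless they were deeper than the median. The study's filter on the ratio of UMIs to genes was not applied, and the cells kept differ in number from the study's. Scrublet in scanpy 1.11.5 then removed the highest doublet scores, at a share of 0.008 per 1000 cells.

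UMIs of the marker-chosen cells were summed per library and scaled by TMM, checked against edgeR 4.0.16. Genes with a mean of at least 20 CPM were considered. Fold intervals are exact conditional binomial, level intervals exact Poisson, and shares exact Clopper-Pearson, all at 95%, computed in Python 3.11.15 with SciPy 1.17.1. A count of 0 was bounded with 3 counts for a fold or a share of cells, but not in the calls or between the marked sets. Scripts were tested on simulated data.

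Genes named are the 12 largest called changes in each direction that reached 50 CPM and carry a symbol, the 7 genes of the rule, up to 4 genes per list, genes at or near 0, and subset markers; others were named after their values were seen. Some genes that these rules select are not reported here. The members and lists were chosen with earlier results of these data known. Of 471 listed symbols, 419 matched, and 4317 of 16828 genes carry only an Ensembl ID. HBBR names 2 near-identical genes, between which reads may be split. Alternatives were other scalings (DESeq2 1.42.0 size factors, total counts), filters, folds, markers, depths and subsets. Nasal libraries entered only the totals.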

Additional observations from a re-analysis of the deposited data

Results flagged for a closer look

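Over HH12, HH15 and HH20, the levels of 3 genes named here ran in opposite directions in the marker-chosen cells and the other cells. With 1 library per stage the difference was not tested. SVIL, encoding the actin-binding protein supervillin, was at 24.7, 33.7 and 52.7 CPM in the marker-chosen cells, against 44.0, 41.1 and 33.7 CPM in the other cells, a difference of 1.47 between the log2 changes. PELI2, an E3 ubiquitin ligase, was at 32.6, 14.6 and 12.96 CPM, against 27.5, 28.2 and 31.5 CPM, a difference of -1.53. In the other cells its log2 change was 0.20, from 192, 184 and 157 UMIs, so a rise of PELI2 there is not shown. The gene ENSGALG00000030902, which has no symbol in the files, was at 16.3, 29.2 and 35.7 CPM, against 35.7, 30.1 and 22.9 CPM, a difference of 1.77.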

How the results depend on the processing

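No paired analysis was possible because each stage has 1 library and no test was run. The 105 rising and 124 falling genes became 79 and 203 with the total UMI count and 115 and 114 with DESeq2 size factors. They became 141 and 186 when mitochondrial, ribosomal and globin genes were left out of the total used for scaling, though not out of the genes called. They became 718 and 918 of 12999 genes without a filter on CPM, 46 and 42 with a filter of 50 CPM, 214 and 344 at 1.5-fold and 58 and 48 at 3-fold. They became 135 and 193 with MEOX1 as the only marker, 205 and 236 with MEOX2, and 111 and 194 after thinning to 1500 UMIs. Among the PAX1- or NKX3-2-marked cells they were 172 and 379, and among the Pax3- or PAX7-marked cells 169 and 322. At HH20 the sums for MEOX2 and for these marked sets held 299047, 177250 and 214203 UMIs, against 1298292 in the main setting. Settings differ in UMIs and can differ in genes considered, so larger counts do not show more change. With at least 2 marker UMIs 127 rose and 184 fell, of which 78 and 97 were called in all marker-chosen cells. Without the globin-rich cells, an alternative chosen after seeing the data, 102 rose and 119 fell.

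The folds of 52 genes gave 761 values over 15 settings. Of these, 611 lay within the interval of the main value, 146 outside it with the same direction, and 4 were reversed: CRABP2 at -0.76 (log2, 1 UMI at HH20) in all PAX1- or NKX3-2-marked cells, PAX1 at 0.069 (1 UMI at HH20) and PTCH1 at 0.81 (few UMIs at HH20) in the Pax3- or PAX7-marked cells, and HOXB8 at -0.21 in cells with a UMI of HOXA6, HOXA7, HOXB6 or HOXB7. No fold left its interval under the 3 other scalings, but folds moved with the choice of cells. With MEOX2 as the only marker, 18 lay within the interval and 31 outside it in the same direction. In the PAX1- or NKX3-2-marked cells these counts were 19 and 27, and in the Pax3- or PAX7-marked cells 23 and 22. In the cells with a UMI of the 4 HOX genes they were 28 and 23.

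The share of marker-chosen cells at HH12, HH15 and HH20 was 42.5%, 18.7% and 13.5% at 1500 UMIs, 37.7%, 15.0% and 11.5% at 1000 UMIs, and 34.9%, 11.5% and 8.76% with at least 2 marker UMIs. At 1500 UMIs, PAX1 or NKX3-2 was found in 19.2%, 11.1% and 8.0%, and Pax3 or PAX7 in 9.94%, 6.98% and 7.71%. At HH12, TBX6 or MSGN1 was then found in 0.865%, PAX9 in 0.937%, SCX in 1.08% and SOX9 in 11.1%. At HH15 PAX9 was found in 3.76% and SOX9 in 14.1%, and at HH20 PAX9 in 4.0% and SOX9 in 20.6%. Fewer UMIs per cell lower such shares by construction.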

Other observations

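A few genes outside the lists were called at high levels, and they are named here after their values were seen. FTH1, encoding the ferritin heavy chain, which stores iron, was at 1338, 2137 and 3310.1 CPM at HH12, HH15 and HH20 in the marker-chosen cells, against 1697, 2515 and 3994 CPM in the other cells. MIF, encoding a cytokine, was at 248, 253 and 529.9 CPM, against 307, 292 and 458 CPM. SHISA2, which lowers WNT and FGF signalling in presomitic mesoderm, as known from frog, was at 307, 123 and 101 CPM, against 119.7, 39.2 and 47.8 CPM, and was higher in the marker-chosen cells at each stage. The genes without a symbol, ENSGALG00000047532 at 3663, 2799 and 1006 CPM, against 3730.0, 2816 and 1044 CPM, and ENSGALG00000052497 at 2269, 1738 and 351 CPM, against 2273, 1785 and 347 CPM, were lower at HH20 to nearly the same extent in both sets of cells.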
